A study of Macaca mulatta with 13 samples.

Results

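The creatine kinase genes CKM, CKMT2 and CKB, the myoglobin gene MB, the adenylate kinase gene AK1 and the AMP deaminase gene AMPD1 were described in the vastus lateralis, a large thigh muscle, of aged male rhesus monkeys (Macaca mulatta). Calorie-restricted animals (CR, n = 8) were 27 to 32 years old and had been on a diet with fewer calories for 18.5 years, and animals on the control diet (n = 5) were 27 to 30 years old. Each animal gave 1 Affymetrix array of whole muscle RNA, and ages are known per group only. The members were the probe sets, groups of short probes for 1 transcript, whose annotation gave exactly 1 of these 6 gene symbols. They were 9 of 52766 non-control probe sets, and the 6 genes were among 14132 named ones. The genes were chosen by symbol for their roles in 1 pathway, with no threshold on a measured value. The earlier diet differences of these same arrays were known when they were chosen, so the diet differences below are a description, carry no test per gene and support nothing further.

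A contracting muscle fibre can spend ATP faster than its mitochondria deliver it. Creatine kinase at the myofibrils (CKM) rebuilds ATP from phosphocreatine, and the sarcomeric mitochondrial form (CKMT2) makes phosphocreatine from new ATP, so that phosphate is carried between the sites. CKB is the isoform typical of brain, smooth muscle and other tissues. AK1, the cytosolic adenylate kinase of muscle, turns a pair of ADP into ATP and AMP, and AMPD1, the muscle AMP deaminase, turns that AMP into IMP. Myoglobin stores oxygen and eases its passage to the mitochondria, and it is typical of slow, oxidative fibres, whereas AK1 and AMPD1 are best known from fast fibres.

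Values are MAS5 signals, a linear brightness per probe set that had been scaled so that the 2% trimmed mean was 500 on each array. Levels of different probe sets cannot be set against each other, since probes differ in how strongly they bind. Any pair of arrays had an r between 0.834 and 0.940 over the tested probe sets. Control replicate 4 stood apart. It had the lowest bright level, defined as the mean log2 signal of the brightest 1% of probe sets with the members left out, at 14.43, where the other controls lay between 14.75 and 15.05. The bright level was 14.94 ± 0.12 in CR (SD, n = 8) and 14.84 ± 0.25 in controls (SD, n = 5), which an exact permutation test over the animals, two-sided, did not separate (p = 0.329). Of 9 genes fixed as markers of muscle fibres, the 3 with a tested and named probe set were bright, with a mean log2 signal of 15.77 for MYOT, 15.42 for MYBPC1 and 11.25 for TTN.

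CKM was read by 1 bright probe set, MmuSTS.3514.1.S1_at. Its signal ran from 61450 over a median of 86469 to 111127 in CR animals, against 96337, 76995, 55729, 48816 and 77724 in controls. The groups overlapped, and 6 of 8 CR values exceeded the mean of the controls. The log2 difference was 0.29 ± 0.19 (SE) for CR minus control, a 1.22-fold difference with a 95% interval from 0.923 to 1.62. The other CKM probe sets, MmugDNA.27021.1.S1_at and MmuSTS.4801.1.S1_at, had mean signals of 42.2 and 30.8, too dim to be among the tested probe sets. They correlated with the bright one at r = 0.39 (permutation p = 0.190, n = 13) and r = 0.22 (permutation p = 0.461, n = 13). Their differences of -0.46 ± 0.59 and 0.62 ± 0.76 (SE, log2) pointed in opposite directions.

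CKMT2, with the probe set MmugDNA.15860.1.S1_at, ran from 12016 over a median of 18813 to 32717 in CR animals, against 30306, 13778, 10643, 5947 and 28267 in controls. The control values were the more widely spread, with an SD of 0.50 in CR and 0.99 in controls on the log2 scale, and they enclosed most of the CR values. The log2 difference was 0.35 ± 0.35 (SE), or 1.28-fold, with a 95% interval from 0.762 to 2.14. It was 0.02 without control replicate 4.

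CKB was read by MmunewRS.99.1.S1_at, with signals from 244 over a median of 373 to 1168 in CR animals, against 237, 335, 568, 1029 and 251 in controls. In 8 animals, 5 CR and 3 control, the signal lay between 237 and 386, and in the other 5, 3 CR and 2 control, it was 568 or higher. The log2 difference was 0.22 ± 0.42 (SE), or 1.16-fold, with a 95% interval from 0.629 to 2.15. The mean of the controls was exceeded by 3 of 8 CR values. Leaving out control replicate 4 gave 0.55, and leaving out control replicate 1 gave 0.02.

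MB, read by MmugDNA.32460.1.S1_at, ran from 74020 over a median of 109016 to 138987 in CR animals, against 118924, 100928, 58162, 52680 and 102258 in controls. Controls 3 and 4 lay below every CR animal, and the remaining controls lay among them. The log2 difference was 0.36 ± 0.22 (SE), or 1.29-fold, with a 95% interval from 0.935 to 1.77.

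AK1 had a bright and a dimmer probe set, which ordered the animals alike (r = 0.90, permutation p = 6e-05, and rho = 0.83 over 13 animals). The bright one, MmugDNA.32066.1.S1_at, ran from 12621 over a median of 58337 to 79017 in CR animals, against 54809, 45946, 39947, 23838 and 44091 in controls. The dimmer one, MmugDNA.9755.1.S1_at, ran from 878 over a median of 2737 to 3257 in CR animals, against 1719, 3065, 2143, 1178 and 2469 in controls. CR replicate 1 was the lowest animal in both probe sets, below control replicate 4. The log2 differences were 0.20 ± 0.35 and 0.16 ± 0.31 (SE), with 95% intervals from 0.684 to 1.93 and from 0.709 to 1.76 as folds. Their sign was not stable. Without control replicate 4 they were 0.01 and -0.04, and with the replicate number as a block they were -0.11 and -0.13. In the block fit, CR animals whose number no control shares add nothing to the difference.

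AMPD1, read by MmugDNA.17939.1.S1_at, ran from 34632 over a median of 56329 to 75411 in CR animals, against 47681, 51095, 39428, 29774 and 44472 in controls. The CR median lay above the highest control, but 2 CR animals lay among the lower controls. The log2 difference was 0.35 ± 0.20 (SE), or 1.27-fold, with a 95% interval from 0.945 to 1.72.

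**Figure D1:**
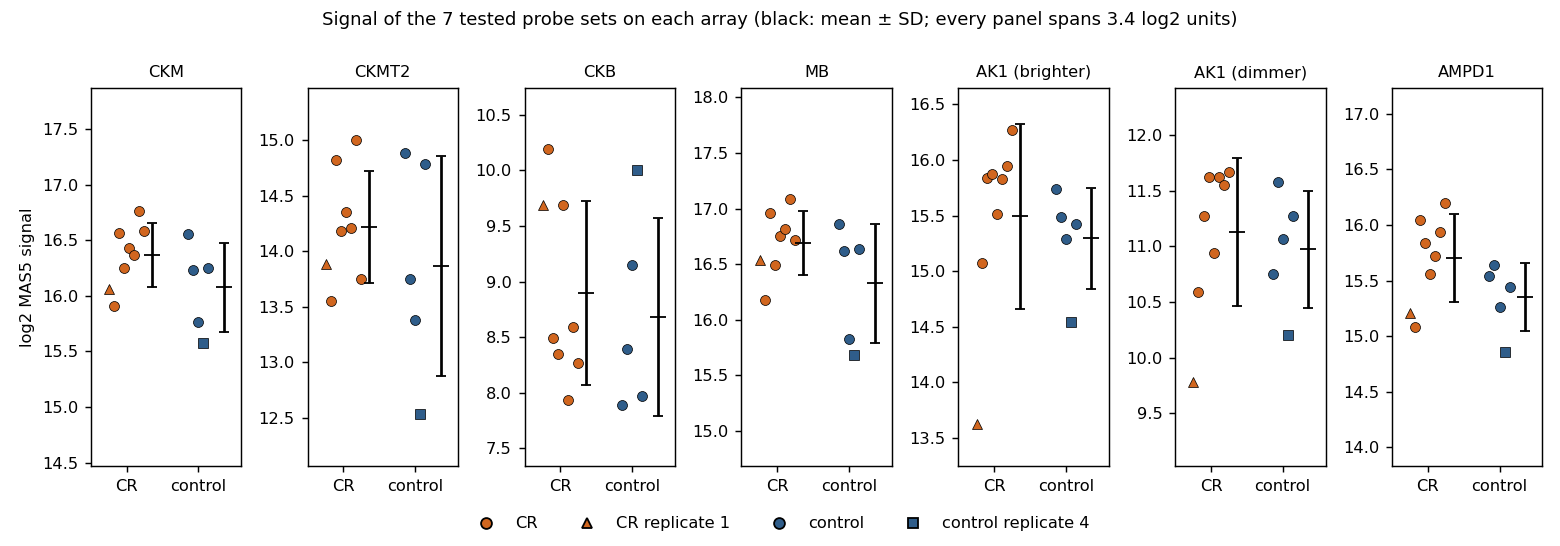
Log2 MAS5 signal of each of the 7 tested probe sets (panels) on each array, with CR animals in orange on the left and controls in blue on the right. Black marks show mean ± SD. The square, control replicate 4, is the lowest control in every panel except CKB, where it is the highest, and the triangle, CR replicate 1, is the lowest CR animal for both AK1 probe sets.

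Across all probe sets the diets did not separate. Each was compared on the log2 scale by limma's moderated test after the dimmer 50% had been set aside, and 0 of 26383 probe sets had an adjusted p under 0.05 (0%). Of the 7 tested probe sets of the members, 0 passed, and 0 had an unadjusted p under 0.05, a threshold that 641 of all tested probe sets met (2.43%). None of the 7 had groups that did not overlap, against 19 of all tested (0.072%). Without 1 animal the unadjusted threshold was met by MB (without control replicate 1) and by AMPD1 (without CR replicate 2). In those fits 906 and 1216 of all 26383 tested probe sets met it. No member met it when any other animal was left out. All 7 differences were above 0, where 48.1% of all tested probe sets were and the median difference was -0.01. That count is not 7 independent values, since the members' signals were correlated across animals, most of them positively and CKB negatively, as described below.

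The size of the differences changed with the scaling. After quantile normalization, which gives every array the same distribution of signals, the log2 difference was 0.12 for CKM, 0.16 for MB, 0.10 for the brighter AK1 probe set, 0.23 for AMPD1 and 0.31 for CKMT2, each smaller than before. It was 0.26 for CKB and 0.17 for the dimmer AK1 probe set, both slightly larger. The median of all tested probe sets moved by less than 0.1 under that scaling. Leaving out each animal in turn gave 0.17 to 0.41 for CKM, 0.20 to 0.50 for MB and 0.23 to 0.44 for AMPD1. The lowest of these ranges were reached without control replicate 4.

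**Figure D2:**
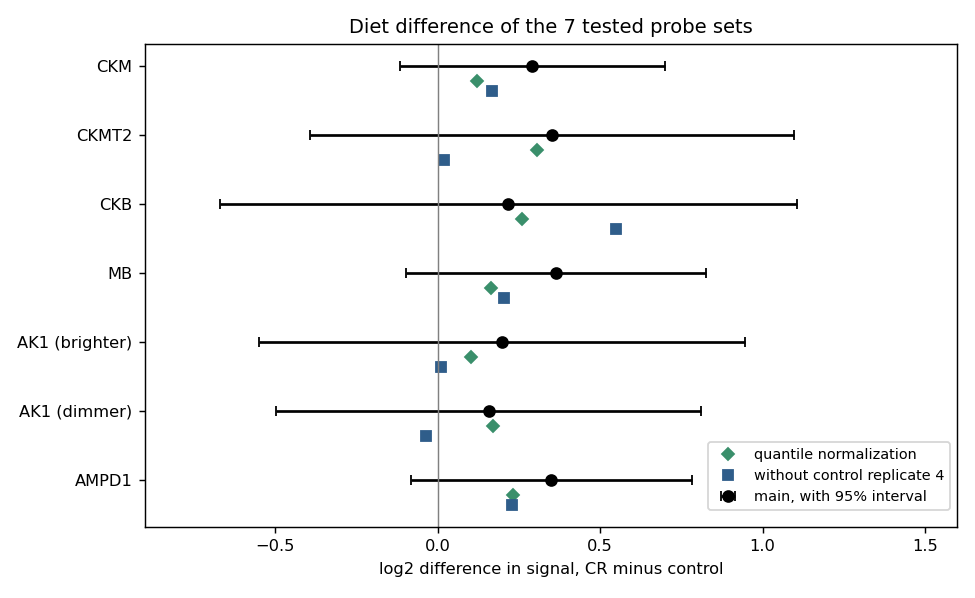
Log2 difference in signal, CR minus control, for the 7 tested probe sets, with 95% intervals (black), after quantile normalization (green diamonds) and without control replicate 4 (blue squares). All 7 intervals include 0, and without control replicate 4 CKMT2 and both AK1 probe sets lie close to 0.

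Several members were read near the top of the scale. CKM, MB and AMPD1 were within the brightest 1% of probe sets (rank 527 or better) on 13 of 13 arrays, the brighter AK1 probe set on 12 and CKMT2 on 7, while the dimmer AK1 probe set and CKB were there on 0. CKM ranked between 44 and 71 and MB between 10 and 60 among 52766 probe sets. The CKM signal stayed between 49.9% and 63.4% of the highest signal on the same array, and the MB signal between 52.2% and 80.3%. For AMPD1 the range was 29.4% to 47.7%, for the brighter AK1 probe set 10.2% to 48.8%, and for CKMT2 6.08% to 22.2%. The SD within diets was 0.33 for CKM, 0.39 for MB and 0.37 for AMPD1 on the log2 scale, against 0.72 for both CKMT2 and the brighter AK1 probe set, 0.62 for the dimmer AK1 probe set and 0.85 for CKB. Scanner intensities were not used here, so whether the signals of CKM, MB and AMPD1 were compressed at the top was not tested.

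CKM ran with MB, CKMT2 and AMPD1 across animals. Between the brightest probe sets of the 6 genes there were 15 pairs, and 13 had an adjusted p under 0.05 by two-sided permutation of Pearson's r over 13 animals, with Benjamini-Hochberg adjustment over the 15. Of the 10 pairs that leave out CKB, 8 passed, all positive. For scale, the 95th percentile of r with all other tested probe sets lay between 0.652, for AK1, and 0.709, for MB. Of the positive pairs that passed, CKMT2 with AMPD1 (r = 0.61) lay below the 95th percentile of both genes. CKM with AK1 (r = 0.67) lay below that of CKM (0.699) and above that of AK1. The share of all pairs of probe sets that would pass was not counted, so the count of 13 has no background beside it. CKM and MB had r = 0.96 (permutation p = 1e-05, the smallest the resampling can give, and adjusted p = 0.00015) and rho = 0.91 (permutation p = 4e-05). Without the 2 animals farthest from the CKM median, control replicate 4 and CR replicate 7, r was 0.92, and within CR it was 0.92 (exact permutation p = 0.00159, n = 8).

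CKMT2 also ran with MB, at r = 0.88 (permutation adjusted p = 0.00015) and rho = 0.88 (permutation p = 0.0002), and at r = 0.76 without the 2 animals farthest from the CKMT2 median. AMPD1 ran with CKM, at r = 0.87 (permutation adjusted p = 0.0008) and rho = 0.86 (permutation p = 0.0003), and at r = 0.79 without the 2 farthest animals. AK1 and AMPD1, successive steps of AMP handling, had r = 0.79 (permutation adjusted p = 0.00207) and rho = 0.95 (permutation p = 1e-05). Without CR replicate 1 and control replicate 4 that pair had r = 0.94. CKMT2 and AMPD1 passed by r only (r = 0.61, permutation adjusted p = 0.0313, and rho = 0.49, permutation adjusted p = 0.0875). That pair had r = 0.31 without the 2 farthest animals and 0.40 without control replicate 4. The pairs that did not pass by r were AK1 with CKMT2 (r = 0.48, permutation adjusted p = 0.0968, and rho = 0.52, permutation adjusted p = 0.0853) and AK1 with MB (r = 0.52, permutation adjusted p = 0.072), of which the second passed by rho (rho = 0.68, permutation adjusted p = 0.0265). Both passed by r without CR replicate 1. Without control replicate 4, 6 of the 13 pairs still passed.

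Most of these pairs did not pass once the arrays were given equal distributions. After quantile normalization 1 of the 15 pairs passed, AK1 with AMPD1 (r = 0.75, permutation adjusted p = 0.0124). CKM and MB had r = 0.65 there (permutation adjusted p = 0.0744), CKMT2 and MB had r = 0.64 (permutation adjusted p = 0.0744), and CKM and AMPD1 had r = 0.55 (permutation adjusted p = 0.0999). MB and AMPD1 had r = 0.16 (permutation adjusted p = 0.612). With the signals as scaled by the authors, the bright level of an array ran with MB at r = 0.93 (permutation adjusted p = 6e-05, rho = 0.93), with CKMT2 at r = 0.90 (permutation adjusted p = 8e-05, rho = 0.84) and with CKM at r = 0.89 (permutation adjusted p = 6e-05, rho = 0.81), with permutation p of 0.00135 or less for each rho. For AMPD1 r was 0.79 (permutation adjusted p = 0.000645) and rho 0.72 (permutation p = 0.00696), and for AK1 r was 0.60 (permutation adjusted p = 0.0466) and rho 0.66 (permutation p = 0.0163). CKB ran against the bright level, with r = -0.74 (permutation adjusted p = 0.00242) and rho = -0.65 (permutation p = 0.0176). Without control replicate 4 and CR replicate 2, the animals farthest from the median bright level, r was 0.89 for MB, 0.80 for CKMT2, 0.83 for CKM, 0.60 for AMPD1, 0.50 for AK1 and -0.57 for CKB. With quantile normalization of the members only, and the bright level kept as scaled by the authors, 5 of these 6 relations still passed. There r was 0.87 for CKMT2, 0.67 for MB, 0.62 for CKM, 0.61 for AMPD1 and -0.73 for CKB. AK1 had r = 0.44 (permutation adjusted p = 0.118). A bright level taken after quantile normalization was not used. The brightest probe sets of CKM, CKMT2, MB, AK1 and AMPD1 are themselves among the brightest 1% by mean log2 signal. They were left out of the bright level, but the probe sets that make it up are of the same bright class. The p-values therefore do not set these members apart from other bright probe sets, whose share passing was not counted. Whether the bright level of an array reflects the muscle or the hybridisation was not tested.

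**Figure D3:**
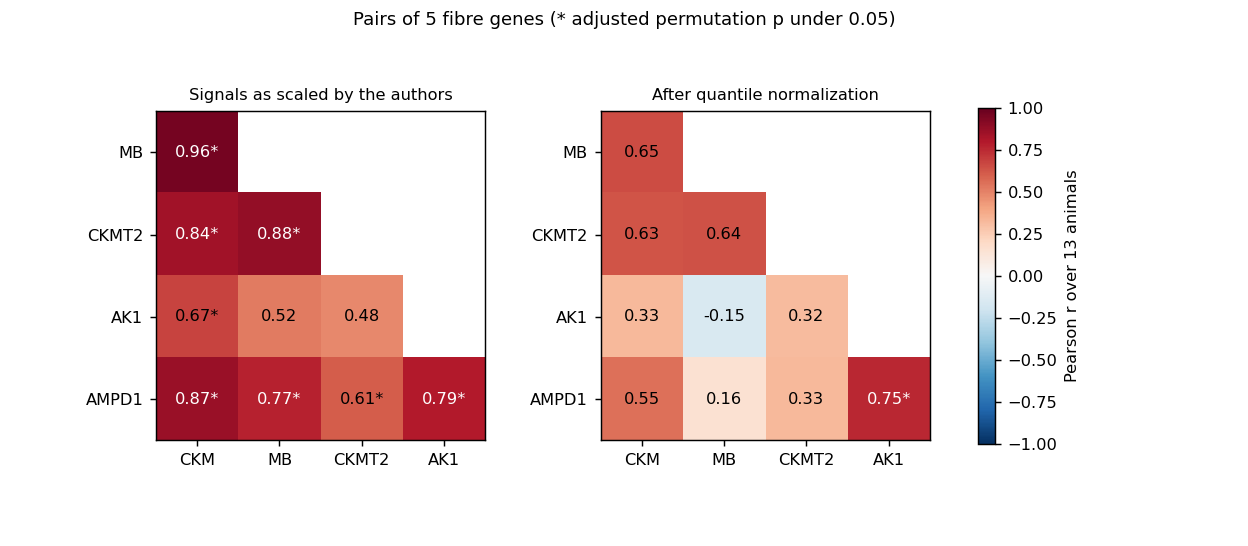
Pearson's r over 13 animals for each pair of CKM, MB, CKMT2, AK1 and AMPD1, with the signals as scaled by the authors (left) and after quantile normalization (right). Stars mark an adjusted permutation p under 0.05, and their number is 8 of 10 on the left and 1 of 10 on the right, for AK1 with AMPD1.

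CKB ran against the other genes in Pearson's r, and this depended on how it was tested. Over 13 animals the 5 pairs with CKB had r between -0.62, with MB and with CKMT2, and -0.69, with AMPD1, and all 5 passed (permutation adjusted p from 0.0149 to 0.0285). Over all 26382 other tested probe sets the 5th percentile of r with CKB was -0.679. The values for MB, CKMT2 and CKM (r = -0.64) lay inside that background, and those for AK1 (r = -0.68) and AMPD1 at its edge. With group means removed r was -0.68 to -0.85, and all 5 passed again. By rho, between -0.51 and -0.59, none of the 5 passed (permutation adjusted p from 0.0648 to 0.0867). None passed after quantile normalization, and none without control replicate 4, which had the highest CKB signal of the controls. Without the 2 animals farthest from the median (of CKM and CKMT2 in their pairs, of CKB in the others), r lay between -0.34 and -0.64. Within CR, CKB had r = -0.84 with AMPD1 (exact permutation p = 0.0108, n = 8) and r = -0.68 with AK1 (exact permutation p = 0.0354, n = 8). The high CKB signals, of 568 or more, were those of CR replicates 1, 2 and 5 and control replicates 3 and 4.

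AK1, AMPD1 and CKM tracked the fast-twitch genes. A fast-twitch score, the mean z score per animal over 11 of 14 listed genes with a tested probe set, was compared with each member, as were 8 other scores, which made 54 relations adjusted together. It ran with AK1 at r = 0.94 (permutation adjusted p = 0.00054) and rho = 0.91 (permutation p = 6e-05), with AMPD1 at r = 0.88 (permutation adjusted p = 0.00108) and rho = 0.90 (permutation p = 0.00014), and with CKM at r = 0.86 (permutation adjusted p = 0.00612) and rho = 0.91 (permutation p = 7e-05). Without CR replicate 1 and control replicate 4, the animals with the lowest scores, r was 0.88 for AK1, 0.90 for AMPD1 and 0.95 for CKM. These were the 3 relations of the 54 that passed by r.

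The fast-twitch relation depended on the scaling for CKM and not for AK1. After quantile normalization r was 0.94 for AK1 (permutation adjusted p = 0.00162), 0.73 for AMPD1 (permutation adjusted p = 0.0664) and 0.27 for CKM (permutation adjusted p = 0.614). MB had r = 0.76 with the fast-twitch score before quantile normalization (permutation adjusted p = 0.0563), where rho was 0.82 and passed (permutation adjusted p = 0.0158), and r = -0.13 after it. The slow-twitch score, over 9 of 10 listed genes, had r between -0.39, with AK1, and 0.38, with CKMT2, and the lowest permutation adjusted p of these 6 relations was 0.373. MB, the gene best known from slow fibres, had r = 0.22 with it (permutation adjusted p = 0.569).

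**Figure D4:**
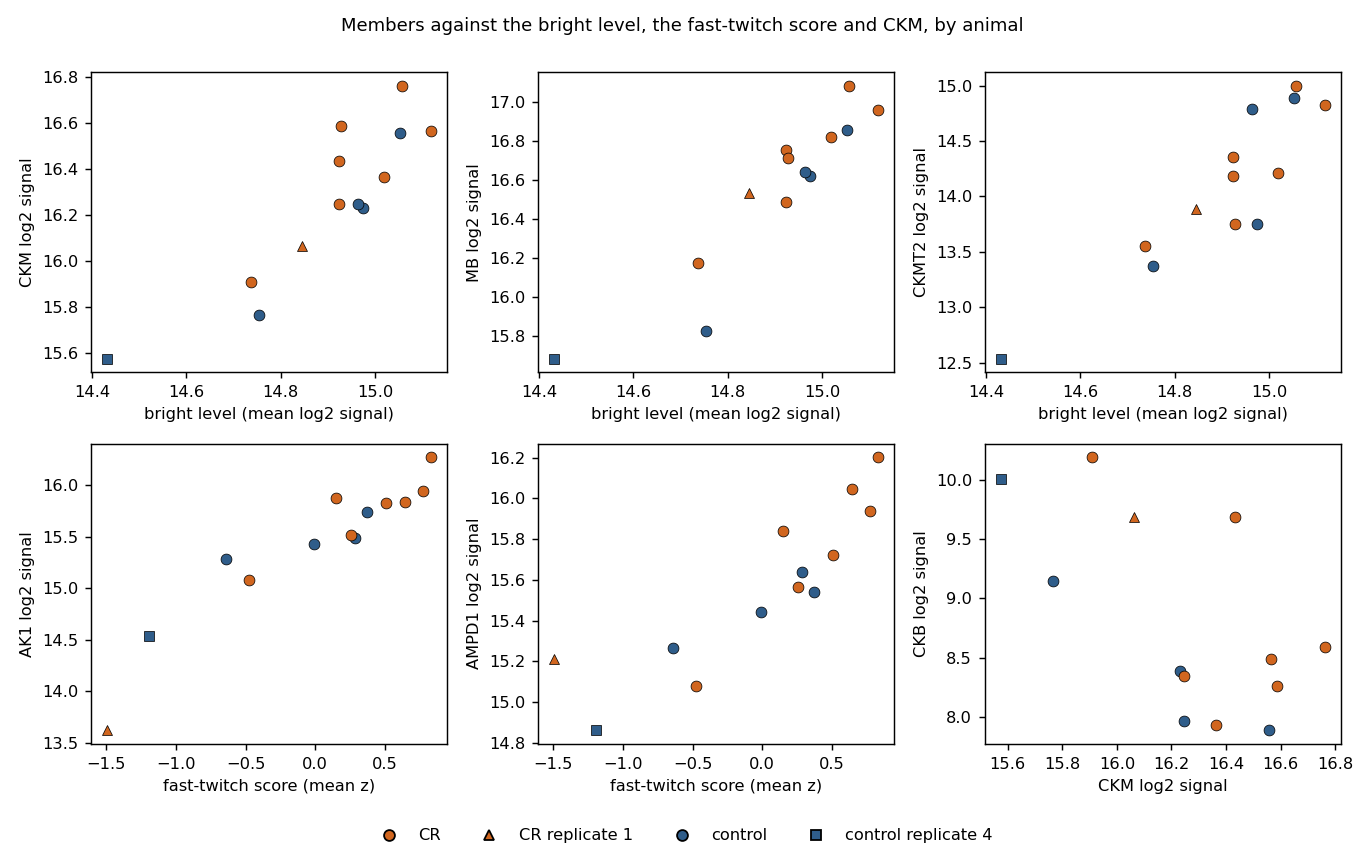
Log2 signals by animal, with CKM, MB and CKMT2 against the bright level of the array (top row), AK1 and AMPD1 against the fast-twitch score, and CKB against CKM (bottom row). CR animals are orange and controls blue. Control replicate 4 (square) is at the low end of the bright level, and CR replicate 1 (triangle) has the lowest fast-twitch score and the lowest AK1 signal.

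Fibre type and other cells differed in level from animal to animal. In bulk muscle fewer cells of a type and less RNA per cell cannot be told apart. The fast-twitch score ran from -1.49 to 0.83 in CR animals and from -1.20 to 0.37 in controls, and the summed signal of its genes from 515434 to 981958 in CR animals and from 504130 to 845338 in controls. The slow-twitch score ran from -2.24 to 1.05 in CR animals and from -0.67 to 0.82 in controls, and the summed signal from 24829 to 606212 in CR animals and from 110155 to 525540 in controls. Of the fast-twitch genes 8 of 11 were above 0 in the log2 difference, with a median of 0.21, and of the slow-twitch genes 9 of 9 were below 0, with a median of -0.52. Genes of 1 list can vary together, so these counts are not counts of independent values. The slow-twitch score of -2.24 was that of CR replicate 8, with the next animal at -1.01. None of the fibre genes passed limma's test, and their part in the members' values was not tested beyond the correlations given.

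Markers of vessels were also below 0 in the diet difference, 9 of 9 for endothelium (median -0.33) and 5 of 5 for smooth muscle and pericytes (median -0.42), with none past limma's test. This was not particular to vessels. Below 0 were also 4 of 5 adipocyte genes (median -0.66), 3 of 3 blood genes (median -0.22) and 4 of 5 Schwann cell and nerve genes (median -0.06). So were 5 of 8 macrophage genes (median -0.12) and 4 of 7 fibroblast and matrix genes (median -0.06). Genes of 1 list are not independent values here either. Control replicate 4 had the highest score of all animals in both vessel lists, 1.55 for endothelium and 1.92 for smooth muscle and pericytes. The summed signal of the endothelial genes ran from 5001 to 11630 in CR animals and from 7203 to 19576 in controls. That of the smooth muscle and pericyte genes ran from 5797 to 23026 in CR animals and from 8249 to 28312 in controls. AMPD1 had r = -0.69 with the endothelial score (permutation adjusted p = 0.0589) and r = -0.69 with the smooth muscle and pericyte score (permutation adjusted p = 0.0589), neither of which passed. None of the 9 scores passed with CKB, the isoform that other tissues share, in the values as they stand. CKB had r = 0.70 with the macrophage score (permutation adjusted p = 0.0563) and r = -0.71 with the fast-twitch score (permutation adjusted p = 0.0589). With group means removed both passed, with r = 0.72 (permutation adjusted p = 0.0337) and r = -0.78 (permutation adjusted p = 0.0244). With the smooth muscle and pericyte score CKB had r = 0.63 (permutation adjusted p = 0.102). With group means removed that r was 0.71 (permutation adjusted p = 0.0523), which did not pass. No marker counted here was at the signal floor of 1, and the lowest single signal was 18.4. The log2 ratio of 3-prime over 5-prime GAPDH control probe sets, a measure of RNA integrity, was 0.71 ± 0.13 in CR (SD, n = 8) and 0.58 ± 0.23 in controls (SD, n = 5). The same log2 ratio for actin was 1.74 ± 0.31 in CR (SD, n = 8) and 1.75 ± 0.38 in controls (SD, n = 5). Its highest value was that of control replicate 4 (2.41), and its lowest that of CR replicate 1 (1.06). None of the 12 relations of the members to the GAPDH and actin ratios passed, with all animals or with any 1 left out. AK1 had r = 0.34 with the actin ratio. Dropping control replicate 4 raised this to 0.78, and dropping CR replicate 1 turned it to -0.31. Whether RNA integrity set these animals apart was not tested.

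The transcripts most like each member were found by Pearson's r over 13 animals among tested probe sets with 1 gene symbol. As a background, the 95th percentile of r over all 26382 other tested probe sets lay between 0.652, for AK1, and 0.709, for MB. Nearest to CKM were TPM2 (r = 0.98), a tropomyosin, MYL1 (r = 0.97), a fast myosin light chain, probe sets annotated to NUP133 (r = 0.97) and LOC708858 (r = 0.97), and GAPDH (r = 0.97), the glycolytic enzyme. All 5 had mean log2 signals of 15.94 or more. After quantile normalization r with CKM was -0.12 for TPM2, -0.20 for MYL1, 0.52 for NUP133, 0.51 for LOC708858 and 0.44 for GAPDH. MB shared TPM2, LOC708858, NUP133 and MYL1 with CKM among its nearest 5, and its other one was CYC1 (r = 0.96, and 0.79 after quantile normalization), which encodes cytochrome c1 of the respiratory chain.

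CKMT2 was nearest to ATP5MG (r = 0.95), an ATP synthase subunit, to a probe set annotated to HHEX (r = 0.93), to the complex I subunits NDUFS1 (r = 0.93) and NDUFA8 (r = 0.93), and to LOC710937 (r = 0.93). These values stayed between 0.91 and 0.93 after quantile normalization, and without control replicate 4 they were 0.87 to 0.92. AK1 was nearest to BRICD5 (r = 0.97), ATP2A1 (r = 0.97), the calcium pump of fast fibres, LOC701144 (r = 0.95), PHKA1 (r = 0.94), the muscle subunit of phosphorylase kinase, and KIF5A (r = 0.94), a kinesin motor. After quantile normalization ATP2A1 had r = 0.98 with AK1. ATP2A1 is also 1 of the 11 fast-twitch genes counted above. AMPD1 was nearest to ANKLE2 (r = 0.98), LOC698713 (r = 0.96), LOC707459 (r = 0.95), FBRS (r = 0.95) and PARK7 (r = 0.95), which protects against oxidative stress. CKB was nearest to PYGL (r = 0.93), the liver form of glycogen phosphorylase, RSF1 (r = 0.92), a chromatin remodelling factor, ERBB3 (r = 0.91), a neuregulin receptor, NINJ1 (r = 0.90) and ACTR3 (r = 0.89), an actin nucleator. Without control replicate 4 these values were 0.87 to 0.93.

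The genes around the shuttle gave no call between the diets either. For creatine supply, the creatine transporter gene SLC6A8 differed by 0.23 ± 0.36 (SE, log2, CR minus control). GAMT, the last step of creatine synthesis, differed by 0.48 ± 0.23, with log2 signals of 14.03 ± 0.33 in CR (SD, n = 8) and 13.56 ± 0.60 in controls (SD, n = 5). GATM, the first step, differed by -0.10 ± 0.28. CKMT1A and CKMT1B had no tested and named probe set. Of the 3 genes measured, 0 passed, and the median difference was 0.23.

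AK4, a mitochondrial adenylate kinase, differed by 0.17 ± 0.13 (SE, log2). In the purine nucleotide cycle and its neighbours 9 genes were measured, 7 above 0 and 2 below, with a median of 0.09. None passed limma's adjusted threshold, and 1, ADSL, had an unadjusted p under 0.05, which 2.43% of all 26383 tested probe sets had. ADSL, adenylosuccinate lyase, which rebuilds AMP in that cycle, had log2 signals of 12.68 ± 0.55 in CR (SD, n = 8) and 11.90 ± 0.69 in controls (SD, n = 5), and differed by 0.79 ± 0.30 (SE), with a further probe set at 0.70. Its limma adjusted p was 0.999. The lowest ADSL value of the controls, 10.70, was that of control replicate 4, with the next control at 11.91. The difference without that animal was not computed. ADSS1, the muscle adenylosuccinate synthase, differed by 0.09 ± 0.18, and the other AMP deaminase genes by 0.21 ± 0.17 for AMPD2 and 0.49 ± 0.35 for AMPD3, whose other probe set gave -0.35.

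For the exchange of ADP and ATP across the mitochondrial membranes, 4 of 5 measured genes were above 0 (median 0.13) and 0 passed. SLC25A4, the carrier of muscle mitochondria, differed by 0.28 ± 0.29 (SE, log2) and SLC25A5, a carrier of other tissues, by -0.10 ± 0.21. Of the AMP-activated protein kinase, the sensor of cellular AMP, 5 subunit genes were measured, 3 above 0 (median 0.10) and 0 past the test. PRKAG3, its muscle gamma subunit, differed by 0.82 ± 0.44, with log2 signals of 13.85 ± 1.12 in CR (SD, n = 8) and 13.02 ± 0.40 in controls (SD, n = 5), and PRKAA2, a catalytic subunit, by 0.23 ± 0.27. Of the genes for oxygen handling 4 were measured, 2 above 0 (median -0.01), and 0 passed. They did not include CA3, which was not analysed here.

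**Figure D5:**
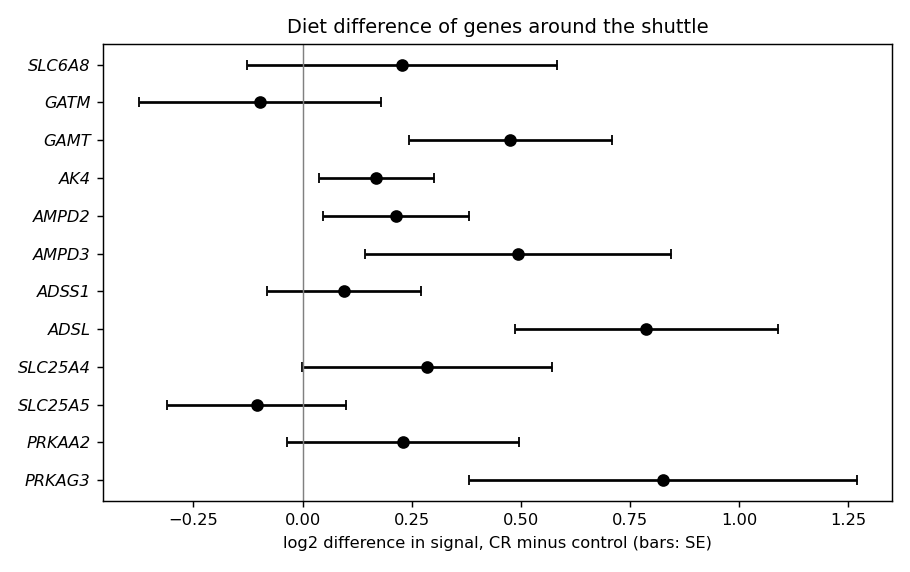
Log2 difference in signal, CR minus control, with its SE, for 12 genes of creatine supply, adenylate kinase, the purine nucleotide cycle, ADP/ATP exchange and the AMP-activated protein kinase, each by its brightest tested probe set. PRKAG3 (0.82) and ADSL (0.79) lie farthest from 0, and none of the 12 passed limma's test.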

How the data were processed

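The deposited file holds linear intensity values that the authors computed with MAS5, per the submitters' processing notes, with no version named there. RNA was extracted with Trizol and labelled with biotin, per the labels' protocols. Of 52865 probe sets 99 were controls and left out, the 137 signals under 1 were raised to 1, log2 was taken, and the brighter 50%, 26383 probe sets, were tested with limma 3.58.1 under R 4.3.3 (lmFit, eBayes with a trend, Benjamini-Hochberg adjustment, threshold 0.05). Genes were named from the platform annotation. Values of the 2 dimmer CKM probe sets come from a fit without that filter. Correlations were tested with 100000 random permutations in numpy 2.4.6, or exactly for 8 animals. Marker scores are means of z scores over the brightest probe set per gene.

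Members and gene lists were chosen with earlier results of these data known. All probe sets of the 6 genes are described. Genes around the shuttle were named from a fixed set, and the 5 most alike transcripts by r. The relations to the bright level were added after seeing the data. On simulated arrays that kept each probe set's mean and spread, limma's test found 6 of 67 with a 1.5-fold change, 20 of 67 with a 2-fold change and 60 of 66 with a 4-fold change, among 26383. There were 5 false calls. The simulated noise was independent between probe sets, whereas the real signals varied together, so recovery in the real data can differ. With MAS5 scaling, a change common to most transcripts of an animal is lost. The number of arrays limits the precision. The sources used here name no batch or date.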

Additional observations from a re-analysis of the deposited data

Results flagged for a closer look

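Within each diet, single outlying animals were looked for with Dixon's criterion in the members' probe sets, the genes around the shuttle and the marker scores. This gave 3 flags in 60 groups, where chance gives about 1 in 20, or 3. The brighter AK1 probe set had a log2 signal of 13.62 in CR replicate 1, with the next CR animal at 15.08, and the same animal had the lowest fast-twitch score. ADSL had a log2 signal of 10.70 in control replicate 4, with the next control at 11.91. The score of smooth muscle and pericytes was 1.92 in control replicate 4, with the next control at 0.21.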

How the results depend on the processing

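The count of 0 probe sets past limma's adjusted threshold was also 0 under each alternative that kept all animals, the exact rank-sum test included, and 0 to 1 with 1 animal left out. No member and no gene around the shuttle passed in any of them. The count at an unadjusted p under 0.05, 641, was 1783 with no filter, 260 for the brightest 25% of probe sets, 389 with the replicate block, and 505 to 1216 with 1 animal left out. The 216 values of the members' differences under the alternatives all lay within 1 SD, the spread between animals within diets, of the main ones. That limit is wide, since this SD exceeded the difference itself for every member probe set. A change of sign, as for AK1, thus lay within it. Changing the filter or dropping the trend cannot move these differences. The count of 13 correlated pairs of members was 1 after quantile normalization, 8 with Spearman's rho, and 6 (without control replicate 4) to 15 (without CR replicate 1) with 1 animal left out. The count of 3 relations to marker scores was 1 after quantile normalization, 6 with group means removed, and 3 to 11 (without CR replicate 1) with 1 animal left out. After quantile normalization r turned to -0.15 for MB with AK1 and to -0.13 for MB with the fast-twitch score, and the cause was not tested. An offset of 16 changed no count of relations. Replicate numbers are shared by 5 pairs of animals, whose deviations from their group means correlated with r from -0.20 to 0.02 across probe sets. An r over all probe sets cannot show a factor shared in few of them, and that was not tested. With the replicate block, where only those 5 pairs set the diet difference, the brighter AK1 difference was -0.11.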
